A study of Homo sapiens with 6 samples.

Results

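The genes of iron-sulfur (Fe-S) cluster assembly were followed in K562 cells depleted of PCBP1, a protein of cytoplasm and nucleus that binds both C-rich RNA and iron. The list was written by name and holds 29 of the 62252 genes with a transcript in the files: the mitochondrial assembly machinery with its ferredoxins and ferredoxin reductase (FDXR), the cytosolic assembly machinery, and the mitoferrins that bring iron into mitochondria. Of these, 28 were tested, and BOLA1, with a mean of 0.428 TPM (length-scaled abundance relative to all transcripts of a library), was too low to receive an adjusted p.

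K562 is a human erythroleukemia line. Cells of both groups were transduced overnight with lentivirus in polybrene and then selected in puromycin for several days before RNA was taken. The 3 shCtrl libraries came from cells that carried a pLKO.1 hairpin against luciferase, and the 3 shPCBP1 libraries from cells that carried one against PCBP1. A single PCBP1 hairpin in a single line was used, the cells were otherwise not edited or treated, and the labels number the libraries without saying whether they came from separate transductions, so p-values measure the spread between these libraries. In bulk RNA, fewer cells that express a gene and less RNA per cell cannot be told apart.

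Fe-S clusters are built in mitochondria on the scaffold ISCU. The desulfurase NFS1 supplies sulfur, and electrons pass from NADPH to the flavoprotein FDXR and on to the ferredoxins FDX2 and FDX1. A chaperone pair hands the finished cluster to carriers, and an exported product feeds a separate cytosolic machinery that serves DNA polymerases, helicases and other proteins. Erythroid cells also need this pathway for heme, since ferrochelatase holds a cluster and the iron for both products enters through the mitoferrins.

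Library totals lay between 67066747 and 140522444 estimated counts. Libraries of one group differed by more than sampling noise (chi-square per degree of freedom 6.48 to 16.4), so each was counted as 1 sample, and the first principal component, with 29.4% of the variance, separated the groups. PCBP1 had 18.1% of its shCtrl level in shPCBP1 (log2 fold change -2.47, SE 0.0439). All 10 erythroid markers examined, among them GATA1, KLF1 and the embryonic and fetal globins, averaged between 15.5 and 13880 TPM. Of these, TAL1, TFRC and HBG1 were higher in shPCBP1, EPOR was lower, and 6 did not pass. Of 5 markers each for T cells, B cells, monocytes and epithelium, 1 per list reached 1 TPM. Among these were CD3D (60.5 TPM), LYZ (48.9) and EPCAM (34.9), while CD3E, MS4A1, CD14 and CDH1 lay between 0.0425 and 0.326 TPM. KRT14 was at 0. Summed marker levels overlapped between groups for T cells (62.1 to 74.1 TPM in shCtrl, 46.8 to 63.5 in shPCBP1) and monocytes (46.1 to 52.3, 45.7 to 53.4). They were lower in shPCBP1 for B cells (3.04 to 3.34, 1.75 to 2.03) and epithelium (36.8 to 38.2, 26.8 to 36.4). The part of these markers in the results was not tested.

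FDXR was the only one of the 28 tested members that changed by more than 1 on the log2 scale. In shCtrl it had 8242, 8545 and 7988 normalized counts, and in shPCBP1 3641, 3694 and 3998. Every shPCBP1 library lay far below every shCtrl library. This left 45.7% of the shCtrl level, a log2 fold change of -1.13 (SE 0.0524, 95% interval -1.23 to -1.03, DESeq2 Wald test, Benjamini-Hochberg adjusted p = 2.03e-99). FDXR ranked 6 by p among all genes, and 144 of the 17095 genes tested had a lower log2 fold change. A changed gene was defined by an adjusted p below 0.05, a log2 fold change beyond 1 in either direction and more than 10 normalized counts in the mean. These limits held for 1.37% of all genes tested and for 1 member. The fall was estimated just past the 1.0 limit. In a test against that limit itself, FDXR did not pass (DESeq2 adjusted p = 1).

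**Figure D1:**
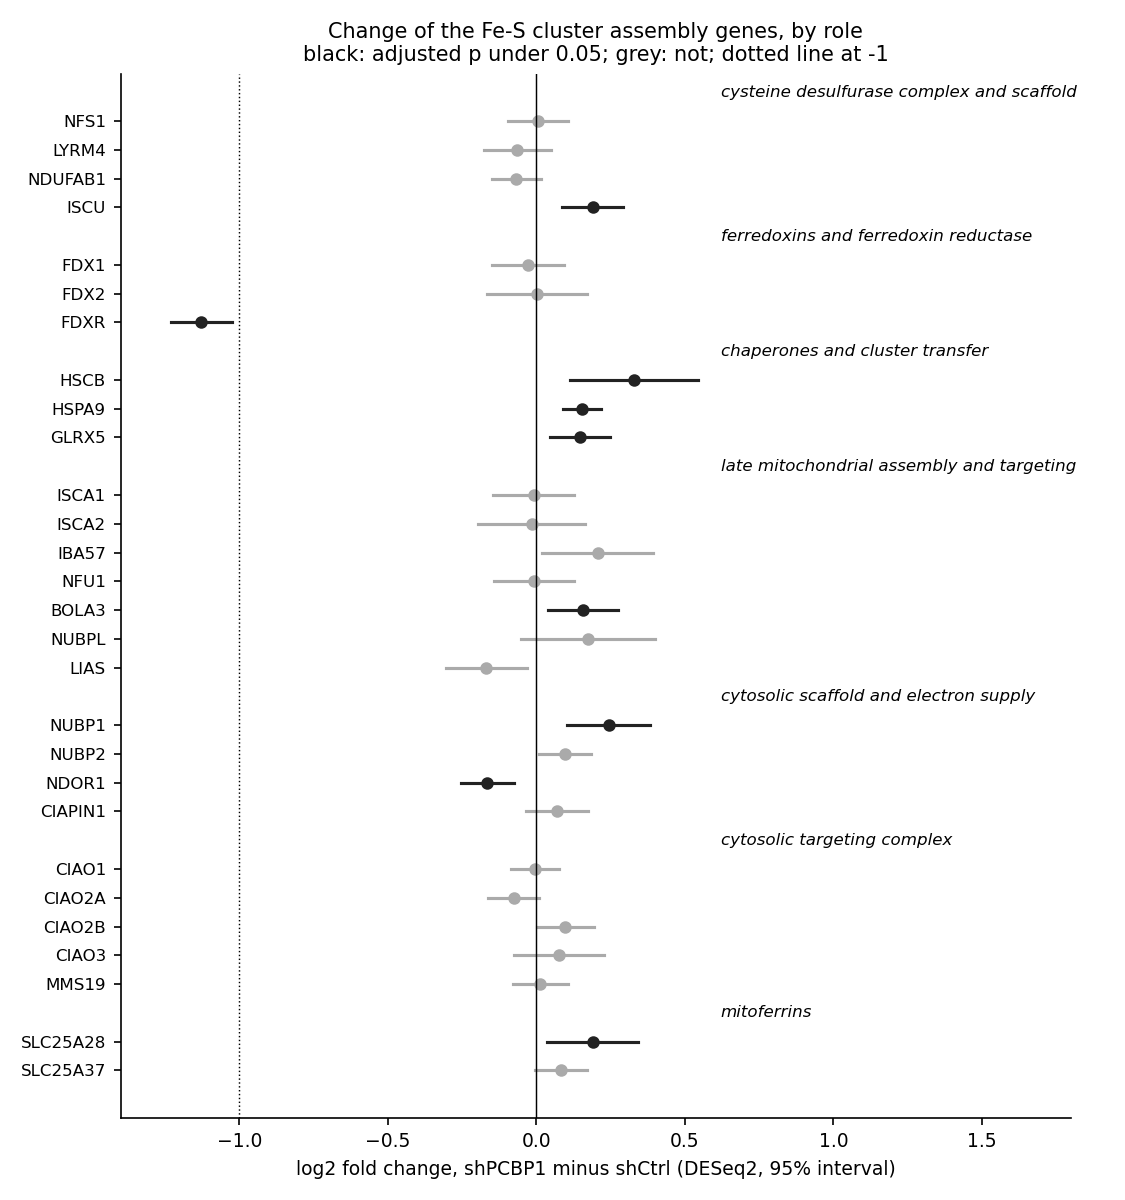
Log2 fold change of shPCBP1 against shCtrl for the 28 tested members, grouped by role, with points for the DESeq2 estimate and bars for the 95% interval. FDXR sits at -1.13 while all other members lie between -0.17 and 0.33.

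Smaller changes were found for 8 further members. At an adjusted p under 0.05, 9 of 28 members passed (32.1%), against 31.2% of all genes tested and 42.8% of those that averaged 500 or more normalized counts, a level that all 28 members exceeded. Of the 9, 7 were higher in shPCBP1, where the share over all genes was 17.7%, and 2 were lower, where it was 13.5%. This split was 5 and 3 with TMM factors or with coding genes only, and 6 and 4 with coding transcripts only. The share of members that passed was thus near or below the background. The groups did not overlap for 15 of 28 members, against 44.2% of all genes tested, and all 9 that passed were among the 15. This last background was not restricted to genes that averaged 500 or more normalized counts, so it is not matched to the members. The median log2 fold change was 0.041 over the members and 0.0019 over all genes tested. The 19 members that did not pass had estimates from -0.17 to 0.21, and no bound of their 95% intervals went past 0.401 in size. Without shPCBP1 replicate 1 the number that passed was 5, and edgeR's quasi-likelihood test passed 6.

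**Figure D2:**
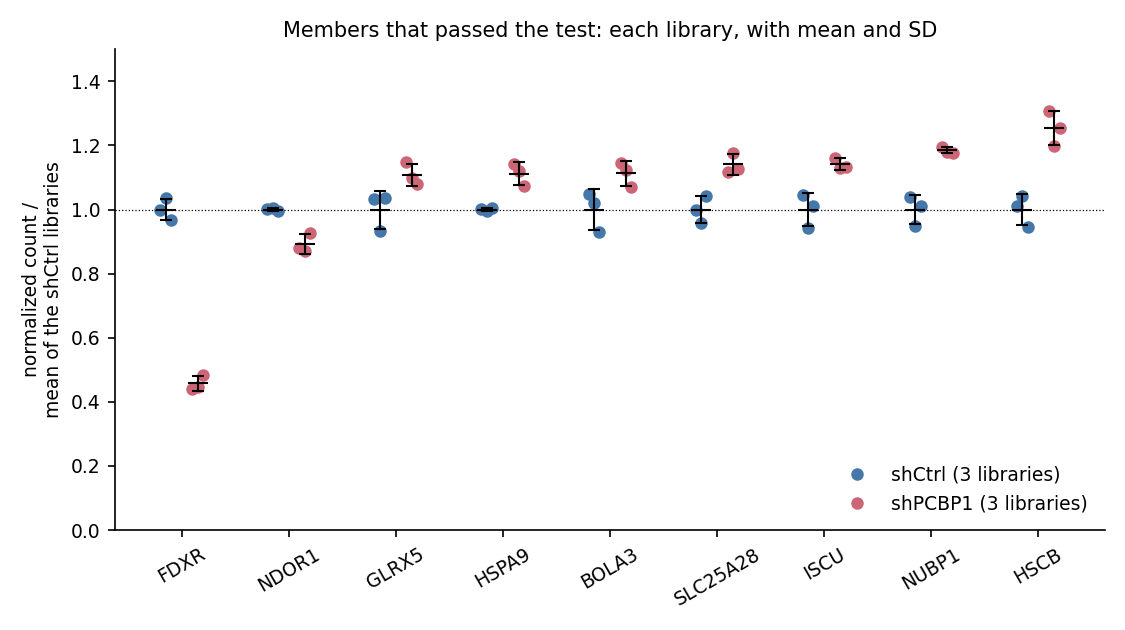
Normalized counts of the 9 members that passed, divided by the mean of the shCtrl libraries, with 1 point per library and bars for the mean and SD of 3 libraries. FDXR falls to 45.7% of shCtrl, NDOR1 lies slightly below 1 and the other 7 lie slightly above, with no overlap between groups for any of them.

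FDXR lies on chromosome 17 from 74862497 to 74873031 on the minus strand (GRCh38, GENCODE release 44) and shares no base with another annotated gene. The bases just upstream of its start are shown because FDXR carried the largest change, and those of ISCU, the scaffold gene that rose, because it is a member that moved the other way. Both come from the RefSeq promoter table (GRCh38.p14), 5′ to 3′ on the gene's strand, and were trimmed to end before the first annotated base of the gene. They cover chr17:74873032-74873244 (213 bases, minus strand) and chr12:108562346-108562581 (236 bases, plus strand). Capitals mark matches on either strand to the GC box GGGCGG (reverse complement CCGCCC) or the ETS motif CCGGAAG (reverse complement CTTCCGG).
FDXR: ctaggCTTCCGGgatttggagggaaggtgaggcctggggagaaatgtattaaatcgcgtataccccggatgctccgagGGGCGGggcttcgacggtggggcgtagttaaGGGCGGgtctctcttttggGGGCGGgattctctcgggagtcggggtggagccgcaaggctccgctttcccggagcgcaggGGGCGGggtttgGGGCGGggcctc
ISCU: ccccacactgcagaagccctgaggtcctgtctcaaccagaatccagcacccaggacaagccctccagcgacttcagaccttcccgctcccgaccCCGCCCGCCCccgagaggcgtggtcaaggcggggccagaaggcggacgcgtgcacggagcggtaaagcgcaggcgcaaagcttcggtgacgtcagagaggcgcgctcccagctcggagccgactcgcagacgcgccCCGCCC
The FDXR run holds 5 GC boxes and 1 ETS motif, and that of ISCU 3 GC boxes and no ETS motif. In the whole 250 bases upstream of the RefSeq start, FDXR had 6 GC boxes and 67.6% G and C, and ISCU 3 and 69.6%. Of the 27 members with a window used here, 19 (70.4%) held a GC box, against 42.6% of 34788 promoters, and 6 (22.2%) held the ETS motif, against 8.50%. These shares were not matched for base content. All promoters had a median of 58% G and C, and member windows ran from 44.8% (NUBPL) to 77.6% (BOLA3). Among those with the ETS motif were NFS1 and FDX1, which did not pass the test, so the motif was not particular to FDXR. The CCAAT box (CCAAT) was in 9 windows (33.3%, against 32.0% of all promoters) and the GATA motif AGATAA in that of NDUFAB1 (3.70%, against 9.21%). Most of the 27 windows, those of NFS1 and HSCB among them, overlap another annotated gene. These matches describe the sequence and are not measured binding.

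The electron donors of the pathway were FDXR and its partners. FDX2, the ferredoxin of cluster assembly, had 2200, 1812 and 2201 normalized counts in shCtrl and 2132, 2143 and 1954 in shPCBP1. The groups overlapped, with a log2 fold change of 0.0020 (95% interval -0.17 to 0.17, DESeq2 adjusted p = 0.990). FDX1, which serves steroid synthesis and lipoylation, had 3015, 2842 and 2767 in shCtrl and 2809, 2766 and 2887 in shPCBP1. Here, too, the groups overlapped, and the interval ran from -0.15 to 0.09 around -0.028 (DESeq2 adjusted p = 0.793). FDX2 overlaps 2 other annotated coding genes on the same strand (1.42 and 2.22 TPM), so its counts are uncertain to that extent.

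Per length, FDXR and the ferredoxins changed their proportion. The TPM of FDXR divided by the summed TPM of FDX1 and FDX2 was 0.990, 1.11 and 0.960 in shCtrl and 0.455, 0.466 and 0.485 in shPCBP1. FDXR was near parity with the ferredoxins in the control cells and well below it in the depleted cells, and the groups did not overlap (exact permutation test, two-sided, p = 0.1, the smallest that 3 against 3 libraries allow). The ratio of FDX2 to FDX1 was 3.93 ± 0.326 (SD, n = 3) in shCtrl and 3.81 ± 0.141 in shPCBP1 (exact permutation p = 0.7). Among the 29 members ordered by mean TPM, FDXR stood at place 11 in shCtrl and at place 17 in shPCBP1. No other member moved by more than 3 places. The lower ratio of FDXR to the ferredoxins and its lower place follow from the fall of FDXR given above and are not separate results.

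The scaffold group consists of NFS1, its partners LYRM4 and NDUFAB1, and ISCU. ISCU had 5256, 4735 and 5085 normalized counts in shCtrl and 5840, 5684 and 5688 in shPCBP1. All shPCBP1 libraries were above all shCtrl libraries, and ISCU rose by 0.19 on the log2 scale (SE 0.0524, DESeq2 adjusted p = 0.00170). NFS1 had 4303, 4325 and 4499 in shCtrl and 4502, 4418 and 4252 in shPCBP1. These groups overlapped, with an estimate of 0.0048 and an interval from -0.097 to 0.11 (DESeq2 adjusted p = 0.962). NFS1 lies across from ROMO1, a gene of 379 TPM on the other strand, and whether the counting used strand is not given in the sources used here. LYRM4, which stabilises NFS1, and NDUFAB1, the acyl carrier protein bound to it, did not pass. NDUFAB1 was the second most abundant member by TPM, at a mean of 273 over the 6 libraries.

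The chaperones and the first cluster carrier were each higher in shPCBP1. HSCB, the co-chaperone that docks to ISCU, had 639, 657 and 597 normalized counts in shCtrl and 825, 757 and 792 in shPCBP1. The groups were separate, and HSCB had the largest rise of the members at 0.33 (SE 0.110, DESeq2 adjusted p = 0.0119). HSPA9, the mitochondrial Hsp70 mortalin and the most abundant member (303 TPM), rose by 0.15 (SE 0.0325, DESeq2 adjusted p = 2.66e-05), from 57210 to 57745 counts in shCtrl to between 61705 and 65612. GLRX5, a glutaredoxin that carries the cluster onward, rose by 0.15 (SE 0.0514, DESeq2 adjusted p = 0.0164), from 6835 to 7596 to between 7926 and 8413. All 3 genes of this group passed, where 42.8% of all genes that averaged 500 or more normalized counts did. A joint rise was not tested. HSCB did not pass without shCtrl replicate 3 (DESeq2 adjusted p = 0.0583), without shPCBP1 replicate 1 (0.0611) or with the replicate number as a block (0.0622). GLRX5 did not pass with edgeR (0.0637), nor without shCtrl replicate 2 (DESeq2 adjusted p = 0.0826) or shPCBP1 replicates 1 (0.105) or 2 (0.0597). The GLRX5 call was also lost with transcript length offsets (DESeq2 adjusted p = 0.0950) and with coding transcripts only (0.0583). HSCB overlaps CHEK2, of 27.6 TPM, on the opposite strand.

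Of the late mitochondrial factors, which make and deliver [4Fe-4S] clusters, 1 of 7 tested passed. BOLA3, which works with NFU1 in delivery to lipoate synthase, rose by 0.16 (SE 0.0600, DESeq2 adjusted p = 0.0329), from 3754 to 4244 counts in shCtrl to between 4326 and 4633 in shPCBP1. The call was lost with TMM factors (DESeq2 adjusted p = 0.0557) and with edgeR (0.0871), without shCtrl replicate 3 (DESeq2 adjusted p = 0.176) and without shPCBP1 replicates 1 (0.147) or 2 (0.130). It was also lost with coding genes only (DESeq2 adjusted p = 0.0666), coding transcripts only (0.150) and without DESeq2's independent filtering (0.0541). LIAS, the lipoate synthase, had 2598, 2627 and 2540 counts in shCtrl and 2185, 2228 and 2502 in shPCBP1, and missed the threshold with separate groups (DESeq2 adjusted p = 0.0515). IBA57, also with separate groups, had 1465, 1263 and 1536 counts in shCtrl and 1808, 1552 and 1565 in shPCBP1 (DESeq2 adjusted p = 0.0860). ISCA1 and ISCA2, the scaffold proteins that act with IBA57, NFU1, and NUBPL, the complex I assembly factor, did not pass.

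In the cytosolic machinery, NUBP1 was higher and NDOR1 lower, and the other members did not pass. NUBP1, an ATPase of the cytosolic scaffold, had 1813, 1659 and 1769 counts in shCtrl and 2088, 2063 and 2057 in shPCBP1, and rose by 0.24 (SE 0.0709, DESeq2 adjusted p = 0.00332). Its groups were clearly apart. Its partner NUBP2 did not pass (DESeq2 adjusted p = 0.0836), although its groups did not overlap. NDOR1, the cytosolic flavoprotein that passes electrons from NADPH to CIAPIN1, had 6987, 7017 and 6938 counts in shCtrl and 6149, 6069 and 6466 in shPCBP1. It was lower in every shPCBP1 library and fell by 0.16 (SE 0.0454, DESeq2 adjusted p = 0.00167). NDOR1 shares its strand with a second annotated coding gene of 7.88 TPM, and with transcript length offsets its adjusted p was 0.115. CIAPIN1 itself did not pass. The targeting complex (CIAO1, CIAO2A, CIAO2B, CIAO3 and MMS19), which inserts clusters into client proteins, had 0 of 5 genes that passed, with estimates between -0.076 and 0.097. By edgeR's quasi-likelihood test the number was 0 as well, and at an unadjusted DESeq2 p under 0.05 it was 1, CIAO2B.

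SLC25A37 and SLC25A28 encode the mitoferrins, the inner-membrane carriers of iron, the former being the erythroid form. SLC25A37 had 31065, 30040 and 34324 normalized counts in shCtrl and 34038, 33578 and 33373 in shPCBP1. The highest library was in shCtrl and the groups overlapped (log2 fold change 0.08, 95% interval -0.0059 to 0.17, DESeq2 adjusted p = 0.161). Without that library, shCtrl replicate 3, the adjusted p was 0.000252 at a log2 fold change of 0.14. SLC25A28 had 1447, 1388 and 1509 counts in shCtrl and 1618, 1705 and 1633 in shPCBP1, with separate groups. It rose by 0.19 (SE 0.0776, DESeq2 adjusted p = 0.0484). This call was lost with TMM factors (adjusted p = 0.0712), with edgeR (0.0913) and on leaving out any library other than shCtrl replicate 3 (0.0678 to 0.170). It was also lost with coding genes only (DESeq2 adjusted p = 0.0760), coding transcripts only (0.255) and transcript length offsets (0.166). The same held with the replicate number as a block (DESeq2 adjusted p = 0.137) and without DESeq2's independent filtering (0.0787). On the TPM scale SLC25A37 was 11.4 ± 0.346 times SLC25A28 in shCtrl and 10.6 ± 0.669 times in shPCBP1 (SD, n = 3, exact permutation p = 0.3).

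The fall of FDXR was then divided by transcript class. GENCODE lists 10 protein-coding FDXR transcripts, and 10 others that are marked for nonsense-mediated decay (NMD), retain an intron or lack a defined reading frame. The coding transcripts summed to 56.0, 59.1 and 54.9 TPM in shCtrl and 21.2, 23.4 and 24.1 in shPCBP1, a ratio of 0.404. The other transcripts summed to 7.63, 6.08 and 5.70 in shCtrl and 5.19, 5.04 and 5.41 in shPCBP1, a ratio of 0.805. Both sums were separate between the groups. Among the latter, NMD transcripts (2.53 ± 0.185 against 2.27 ± 0.164 TPM, SD, n = 3) and retained-intron transcripts (2.90 ± 0.513 against 2.52 ± 0.393) overlapped between groups. Those without a defined reading frame were at 1.04 ± 0.397 TPM in shCtrl and 0.418 ± 0.314 in shPCBP1, a ratio of 0.400, near that of the coding class, and overlapped too.

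**Figure D3:**
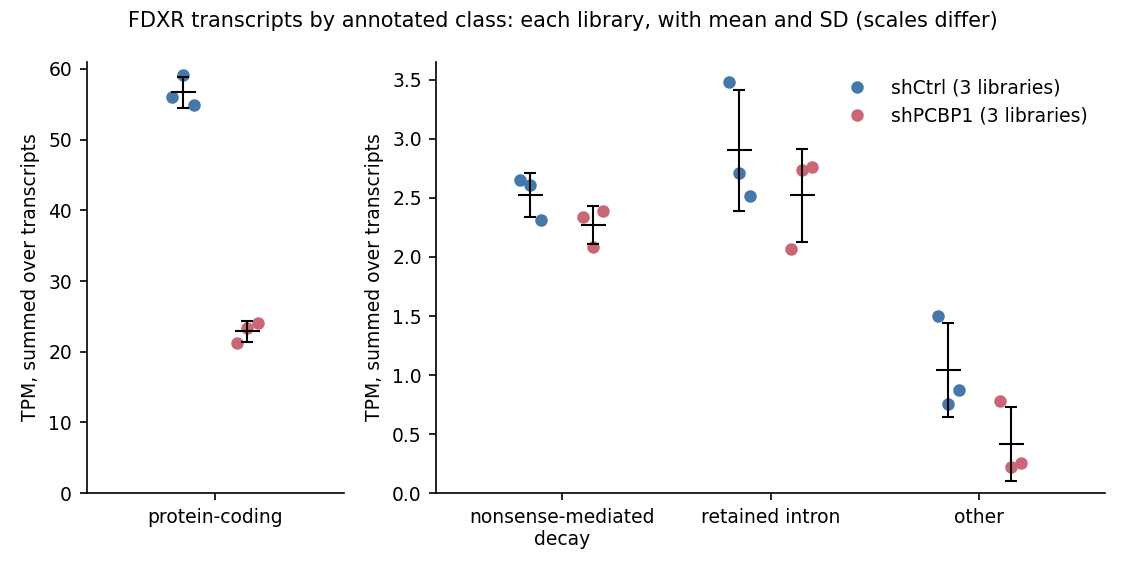
Summed TPM of FDXR transcripts by annotated class, with 1 point per library and bars for the mean and SD of 3 libraries. The coding class falls from between 54.9 and 59.1 TPM to between 21.2 and 24.1, and the NMD, retained-intron and other classes overlap between groups.

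The coding share of FDXR, the TPM of its coding transcripts as a percent of all its TPM, was 88.0%, 90.7% and 90.6% in shCtrl and 80.3%, 82.3% and 81.7% in shPCBP1. The shares of the groups were separate, by 8.33 points in the mean, and the difference ranked 1 by p among the 26 members tested. It did not pass after adjustment over all genes (limma adjusted p = 0.124). In this test 0.0741% of all genes passed and 0 members did, with 4 members at an unadjusted p under 0.05. The other 3 were CIAO3, FDX2 and CIAO2B. At that unadjusted limit the share over all genes was 13.2%.

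Single transcripts gave a similar outcome. FDXR-201, the MANE Select transcript, had 43.9, 51.2 and 43.3 TPM in shCtrl and 16.8, 18.6 and 16.8 in shPCBP1. The transcript's share of the FDXR TPM was 73.0% ± 4.91 in shCtrl and 62.0% ± 4.5 in shPCBP1 (SD, n = 3, limma adjusted p = 0.272). Over 75 member transcripts tested in 24 genes, 0 were called at an adjusted p under 0.05 with a difference over 5 points, where the share over all transcripts was 0.68%, and 12 had an unadjusted limma p under 0.05, a limit met by 13.7% of all transcripts. CIAPIN1-206, a minor transcript, had an adjusted p of 0.0473 (limma), with a share of 4.30% ± 0.419 in shCtrl and 8.95% ± 1.25 in shPCBP1, a difference of 4.65 points. No other member transcript had an adjusted p under 0.05.

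No main transcript of the other members under close view passed the test of shares. ISCU-201 made up 88.8% ± 1.61 of ISCU in shCtrl and 91.7% ± 1.16 in shPCBP1 (limma adjusted p = 0.311). HSCB-201 made up 55.0% ± 7.09 and 61.7% ± 7.84 (limma adjusted p = 0.672), and HSCB-203, an NMD transcript, 21.4% ± 10.1 and 19.6% ± 1.958. FDX1 has 1 annotated transcript. FDX2 was split between FDX2-202 (32.1% in shCtrl and 35.8% in shPCBP1) and FDX2-207 (39.3% and 37.8%), and NFS1 between NFS1-204 (38.7% and 39.9%) and NFS1-207 (28.0% and 30.6%). For SLC25A37 the largest share belonged to a retained-intron transcript, SLC25A37-204, with 42.3% in both groups, ahead of the MANE Select form SLC25A37-206 with 21.5% and 22.9%. A retained-intron transcript also led in SLC25A28, where it took 41.2% and 37.9%, and the MANE Select form SLC25A28-201 took 19.3% and 21.7%.

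The genes around FDXR were compared to see whether the fall was shared by its neighbours. Within 250 kb of the FDXR start lay 18 other protein-coding genes, of which 12 were tested. Of these, 3 were higher in shPCBP1, 2 were lower and 7 did not pass. Over all genes tested, 17.7% were higher, 13.5% were lower and 1.37% were called changed. USH1G, a scaffold protein of hair cells that starts 50.2 kb away, had 234, 326 and 221 normalized counts in shCtrl and 29.2, 83.1 and 99.6 in shPCBP1. It was low in all libraries (0.581 TPM) and fell with separate groups by 1.89 on the log2 scale (SE 0.330, DESeq2 adjusted p = 1.84e-07). It was the 1 neighbour called changed. OTOP2, which starts 49.9 kb away, had 13.2, 29.3 and 19.0 counts in shCtrl and 1.12, 4.75 and 4.15 in shPCBP1, too few for an adjusted p, and HID1, at 100.1 kb, had 45.4, 85.9 and 46.0 against 28.1, 35.6 and 29.1 (DESeq2 adjusted p = 0.111). The groups of both were separate and lower in shPCBP1. Groups were separate, in either direction, for 44.2% of all genes tested. FADS6, which starts 20.8 kb away, had overlapping groups. Its counts were 13.2, 18.5 and 19.7 in shCtrl and 14.6, 3.56 and 44.3 in shPCBP1, also too few for an adjusted p.

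Of the other neighbours that passed, 3 were higher and 1 lower. TMEM104 rose by 0.37 (SE 0.0730, DESeq2 adjusted p = 5.34e-06), MRPL58, a mitochondrial peptidyl-tRNA hydrolase, rose by 0.20 (SE 0.0569, adjusted p = 0.00229) and NAT9 rose by 0.14 (SE 0.0522, adjusted p = 0.0236). NHERF1 fell by 0.15 (SE 0.0539, DESeq2 adjusted p = 0.0176). GRIN2C, the nearest tested gene, with its start at -11.5 kb, had an interval that included 0 (-0.32, DESeq2 adjusted p = 0.530). With transcript length offsets TMEM104 was at 0.23 and did not pass (adjusted p = 0.261), and the calls of NAT9 and NHERF1 were lost on leaving out single libraries. NAT9 lost it without shCtrl replicates 1 (adjusted p = 0.0547) or 2 (0.0748) or shPCBP1 replicates 1 (0.109) or 2 (0.0595), and NHERF1 without shCtrl replicates 1 (0.142) or 3 (0.0753) or shPCBP1 replicates 2 (0.0597) or 3 (0.0694).

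**Figure D4:**
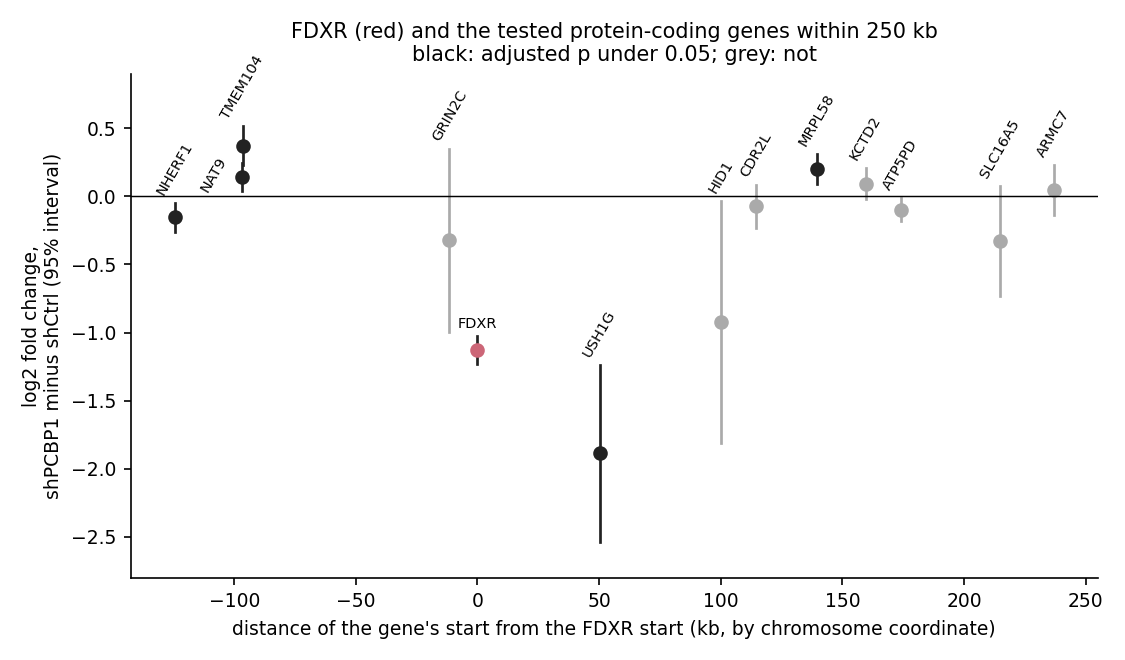
Log2 fold change with its 95% interval for FDXR (red) and the 12 tested protein-coding genes within 250 kb, by distance of their start from that of FDXR in kb. FDXR and USH1G, both of which passed, are the points below -1, and TMEM104, NAT9 and MRPL58 lie above 0.

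Factors that act beside the 29 members were examined as a second list. Of 16 other assembly and export factors, 4 were higher, 5 lower and 7 did not pass, so that 56.2% passed. The share was 31.2% over all genes tested and 42.8% over those that averaged 500 or more normalized counts. Whether the list differed from this background was not tested. ABCB8, an ABC transporter of the mitochondrial inner membrane, had 10277, 9924 and 10336 counts in shCtrl and 8068, 7843 and 7876 in shPCBP1, and fell by 0.36 (SE 0.0409, DESeq2 adjusted p = 8.55e-17). GRPEL1, the nucleotide exchange factor of HSPA9, rose by 0.21 (SE 0.0578, DESeq2 adjusted p = 0.00163). Without shCtrl replicate 2, 4 of the 16 passed.

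Proteins that receive clusters formed 2 further lists. Of 12 mitochondrial Fe-S proteins, 2 passed (16.7%), and both were complex I subunits and lower. NDUFS7 fell by 0.36 (SE 0.0418, DESeq2 adjusted p = 6.15e-16), from 11795, 11820 and 11309 counts to 9135, 8796 and 9311. NDUFV1 fell by 0.21 (SE 0.0346, DESeq2 adjusted p = 1.88e-08). Of 24 tested cytosolic and nuclear Fe-S proteins, 8 were higher and 4 lower, 12 in all (50%). The share was 31.2% over all genes tested and 42.8% over those that averaged 500 or more normalized counts. With edgeR 3 of these proteins were higher and 4 lower, with coding genes only or length offsets 4 and 4, and with TMM factors 5 and 4. Without shCtrl replicate 2 or shPCBP1 replicate 2 the number of these proteins that passed was 7. POLD1, the catalytic subunit of DNA polymerase delta, had 21661, 20564 and 21468 counts in shCtrl and 13982, 13415 and 13013 in shPCBP1, and fell by 0.66 (SE 0.0400, DESeq2 adjusted p = 1.15e-57). The helicases RTEL1 (-0.35, DESeq2 adjusted p = 4.39e-10) and ERCC2 (-0.27, adjusted p = 2.98e-07) also fell, and DPH2, of diphthamide synthesis, rose by 0.30 (adjusted p = 5.12e-06).

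For the reactions linked to the ferredoxins, only the RNA of their genes was measured. Of 11 genes of lipoylation and its enzymes 1 passed (9.09%, against 31.2% of all genes tested). This was DLST, the lipoylated subunit of 2-oxoglutarate dehydrogenase, which rose by 0.17 (SE 0.0487, DESeq2 adjusted p = 0.00248). With coding transcripts only, 1 gene of this list was higher and 3 were lower. Of 9 genes of ferredoxin-linked steroid, vitamin D and heme A chemistry, 4 were tested. CYP11A1, CYP11B1, CYP11B2, CYP24A1 and CYP27A1 were too low. STAR, the carrier of cholesterol into mitochondria, fell by 0.14 (SE 0.0413, DESeq2 adjusted p = 0.00328), and the other 3 did not pass. None of the genes in these lists was called changed.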

How the data were processed

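The authors quantified poly-A, paired-end reads per transcript with Salmon 1.10.2, and per the labels also used STAR 2.7.11b and hg38. The deposited files hold estimated counts, which are not normalized and need not be whole, and TPM, which the authors' software scaled by effective length. The index release is not given in the sources used here. Of 252045 transcripts, 251612 were matched to GENCODE release 44, and the rest (0.136% to 0.147% of counts) were left out.

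Estimated counts were summed per gene, rounded and fitted with DESeq2 1.42.0 with group as its single term, by a two-sided Wald test after median-of-ratios scaling, where the 6 libraries summed to 10 or more. P-values were adjusted over all genes tested, and missing adjusted p-values stayed missing. Fold changes are unshrunken. Shares were tested with limma 3.58.1 on log2((TPM + 0.1) / (TPM of the rest + 0.1)), in genes of at least 1 TPM and, for transcripts, mean shares from 5% to 95%. Tests were also tried on simulated data, the gene test before and the share test after the fit to these data. Precision was lowest for genes of few counts, and multimapped reads between overlapping genes could be divided among them.

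The members and lists were chosen with earlier results of these data known. Library values were given for members that passed with an absolute log2 fold change of at least 0.25, for FDX1, FDX2, ISCU, NFS1 and the mitoferrins, and for some others. From each further list, up to 4 genes with the largest changes that passed and a mean count of at least 100 were named (some genes that this rule selects are not reported here), with every tested coding neighbour of FDXR that passed, and member transcripts of at least 20% share. LIAS, IBA57, NUBP1, NUBP2, NDOR1, GRIN2C, OTOP2, HID1, FADS6 and CIAPIN1-206 were singled out after their values were seen. Alternatives covered edgeR 4.0.16, TMM factors, length offsets, filters, coding genes or transcripts only, a replicate block, pseudocounts and leaving out each library. R 4.3.3 and Python 3.11.15 were used.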

Additional observations from a re-analysis of the deposited data

How the results depend on the processing

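FDXR kept its direction under every alternative tried (log2 fold change -1.28 to -1.10), and it lost its call only in the test against a fold change of 1, where 0 members and 14 genes were called in place of 1 and 235. Leaving out single libraries gave 5 to 9 members that passed, 140 to 249 genes called, 118 to 162 transcripts and 0 to 1 coding shares called over all genes. The same gave 4 to 7 of the assembly and export factors, 7 to 11 of the cytosolic and nuclear Fe-S proteins and 1 to 2 of the ferredoxin-linked genes. Other alternatives moved counts of the further lists: with length offsets 4 assembly factors passed, with edgeR 7 cytosolic and nuclear proteins, with coding transcripts only 4 mitochondrial proteins and 4 lipoylation genes, and with coding genes only 2 lipoylation genes. Coding shares passing over all genes were 23 on estimated counts, 1 with no filter on TPM, and 15 and 32 with pseudocounts of 0.01 and 1 TPM. The cause was not tested.

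Estimates near 0 changed sign. FDX2 was -0.012 with TMM factors, -0.013 with edgeR, -0.0086 at a mean count over 50, -0.020 with coding genes only, -0.064 with coding transcripts only and -0.043 with length offsets. NFS1 was -0.0096 with TMM factors and with edgeR, -0.0059, -0.017 and, with length offsets, -0.0027, and FDX1 was 0.0034 with length offsets. Without single libraries FDX2 ranged from -0.082 to 0.0495, NFS1 from -0.014 to 0.027 and FDX1 from -0.054 to 0.0089.

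Deviations from the group means were not shared by libraries of one number (correlations 0.013, 0.0045 and -0.0285). This cannot show whether libraries of one number were handled together, which the labels do not say. With the replicate number as a block, 7 members passed, FDXR had a log2 fold change of -1.13, 148 genes and 28 transcripts were called, and 0 coding shares passed over all genes. Precision of transcript estimates was not compared across depths.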
